A study of Mus musculus with 5 samples.

Results

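Keratins and epithelial junction genes were followed through 5 single-cell RNA sequencing libraries of differentiating mouse epiblast stem cells (EpiSCs). The genes were 4 keratins (Krt8, Krt18, Krt7 and Krt19), Epcam, 4 claudins (Cldn3, Cldn4, Cldn6 and Cldn7) and Tjp1. They were chosen by symbol, and each of the 10 matched a single gene among the 32285 listed in every library. The EpiSC line came from the epiblast of embryos with a 129 background, and all 5 cultures received 1 µM Chi, a GSK3 inhibitor that activates Wnt signaling, and 8 ng/ml BMP4 for 3 days. A culture with an FGF receptor inhibitor (FGFRi, 30 nM AZD4547) was compared with cultures at 0, 0.75, 3 and 12 ng/ml FGF2. The labels give no FGF2 dose for the FGFRi culture, and all cultures came from 1 line. Every condition was 1 library. No test between conditions was therefore possible, and no p-value is given. All intervals are 95% intervals that cover counting error only and not the spread between cells or between cultures.

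Keratins are the intermediate filament proteins of epithelia. Each filament pairs a type II keratin, such as Krt8 or Krt7, with a type I keratin, such as Krt18 or Krt19, and Krt8 with Krt18 is the pair of simple epithelia and of the earliest embryonic epithelia. Epcam is a cell surface adhesion protein of epithelial cells and of pluripotent cells. Claudins are the membrane proteins that seal the tight junction, and Tjp1 (ZO-1) is the scaffold that ties the junction to the actin cytoskeleton. When epiblast cells leave the primitive streak as mesoderm they undergo an epithelial-to-mesenchymal transition (EMT). Many of these proteins are typically lowered in it, and E-cadherin (Cdh1) is exchanged for N-cadherin (Cdh2).

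On mouse GRCm38 (GENCODE vM21), Krt8 (chr15:101996698-102004482, minus strand) and Krt18 (chr15:102028180-102032027, plus strand) are neighbors. They are separated by 23.7 kb with no annotated gene between them. Cldn4 and Cldn3 on chromosome 5 are likewise neighbors, 39.3 kb apart. The RefSeq promoter windows (GRCm38.p6) were searched for the E2-box, CAGGTG on either strand, which the EMT repressors of the Snail and Zeb families bind. The window was the 250 bases before the start. The table held 10 windows for 9 of the 10 members, Krt19 being the exception, and 7 of these 10 windows held an E2-box, against 17.2% of all 32851 windows. Only 4 of the windows with an E2-box are shown, those of Krt8, Krt18, Epcam and Cldn6, with the E2-boxes in capitals. The windows are chr15:102004343-102004592 on the minus strand for Krt8, chr15:102027966-102028215 on the plus strand for Krt18, chr17:87635729-87635978 on the plus strand for Epcam and chr17:23679115-23679364 on the plus strand for Cldn6.
Krt8: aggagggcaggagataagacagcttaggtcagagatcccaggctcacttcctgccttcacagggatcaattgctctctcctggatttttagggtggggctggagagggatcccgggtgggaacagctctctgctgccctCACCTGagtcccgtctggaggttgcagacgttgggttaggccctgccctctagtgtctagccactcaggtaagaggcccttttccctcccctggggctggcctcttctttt
Krt18: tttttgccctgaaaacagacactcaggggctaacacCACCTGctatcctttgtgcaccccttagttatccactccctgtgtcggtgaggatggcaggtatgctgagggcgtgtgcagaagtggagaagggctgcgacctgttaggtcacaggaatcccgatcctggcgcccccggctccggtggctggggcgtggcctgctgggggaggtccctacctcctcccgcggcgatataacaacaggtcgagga
Epcam: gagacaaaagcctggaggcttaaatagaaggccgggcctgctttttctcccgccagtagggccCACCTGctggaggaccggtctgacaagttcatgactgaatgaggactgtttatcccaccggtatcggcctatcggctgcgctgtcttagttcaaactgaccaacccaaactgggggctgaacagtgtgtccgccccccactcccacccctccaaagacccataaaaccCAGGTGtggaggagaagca
Cldn6: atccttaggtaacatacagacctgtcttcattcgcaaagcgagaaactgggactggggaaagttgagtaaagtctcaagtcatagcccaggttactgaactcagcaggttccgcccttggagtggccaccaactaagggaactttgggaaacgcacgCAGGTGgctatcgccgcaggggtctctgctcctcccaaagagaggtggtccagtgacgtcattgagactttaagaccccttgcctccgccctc
The E2-box began 111 bases before the RefSeq start in Krt8, 214 in Krt18, 93 in Cldn6, and 187 and 19 in Epcam. The windows of Krt8, Krt18 and Cldn6 overlap the genes as annotated by GENCODE, and the E2-boxes of Krt8 and Cldn6 lie inside them. Cldn4, Cldn7 and Krt7 were the other members with one. The AP-2 motif GCCNNNGGC was found for Krt18 and Krt7 only, against 13.7% of all windows. The GC box GGGCGG, which can overlap the AP-2 motif and does so in the Krt7 window, was found in 7 of the 10 member windows, against 32.7% of all windows. The grainyhead motif AACCGGTT (0.116% of all windows) and the TATA box TATAAA (12.4%) were found in none. Cldn7 has a pair of windows, and both were counted. All motifs were searched on both strands, and a match is a run of letters and not a measured binding site.

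Requiring 2500 detected genes and allowing 10% mitochondrial UMIs retained 10653 of 15375 barcodes, between 1696 and 2725 per library. The retained cells of a library held 47824660 to 81538748 UMIs, with medians of 24408 to 29662 UMIs per cell. Only 7 retained barcodes occurred in more than 1 library. Markers of endoderm, another source of keratins and claudins, were close to absent, with a summed level of 1.19 to 4.03 CPM (UMIs of a gene per 1000000 UMIs of the retained cells) over 10 genes and Ttr at 0 in 4 of the 5 libraries. Trophoblast markers summed to 53.0 to 105 CPM over 8 genes. Markers of surface ectoderm and amnion, tissues that normally carry keratins, summed over 10 genes to 333 CPM with FGFRi and 241, 211, 104 and 72.8 CPM along the FGF2 doses. Much of each sum was Wnt6, at 172 CPM with FGFRi and 126, 106, 50.9 and 42.0 CPM along the doses. Tfap2a was at 93.3 CPM with FGFRi. The sum of the list was lower at each step, as were Krt18 and Krt7 below but not Krt8 and Krt19, and its part in their levels was not tested. Markers of mesenchyme and extraembryonic mesoderm summed over 8 genes to 4094 CPM with FGFRi and 1094, 350, 162 and 190 CPM along the FGF2 doses.

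The keratins were highest with FGFRi and lowest at high FGF2. Krt8 was at 942 CPM with FGFRi and 823, 600, 326 and 328 CPM along the FGF2 doses. Its partner Krt18 was at 1350, 1082, 660, 316 and 305 CPM in the same order. The counting intervals of neighboring libraries did not overlap for either gene, other than for Krt8 between 3 and 12 ng/ml, where the ratio was 1.01 (0.988 to 1.03). From 0 to 12 ng/ml, Krt8 was 2.51-fold lower (2.47 to 2.55) and Krt18 was 3.55-fold lower (3.49 to 3.60). The step with the largest ratio for Krt18 lay between 0.75 and 3 ng/ml, at 2.09-fold (2.06 to 2.13). The corresponding step of Krt8 was 1.84-fold (1.81 to 1.87).

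Krt7, a second type II keratin, spanned the widest range of the 10 genes. It was at 29.8 CPM with FGFRi and 12.2, 6.97, 2.83 and 1.95 CPM along the FGF2 doses. The level was thus 15.3-fold (12.8 to 18.3) lower at 12 ng/ml than with FGFRi, and no counting intervals of neighboring libraries overlapped. Krt19, which can pair with Krt8, was at 43.2, 39.7, 23.3, 17.5 and 22.7 CPM. It had its lowest level at 3 ng/ml and was 1.30-fold (1.20 to 1.40) higher at 12 than at 3 ng/ml. The 22 cells richest in Krt19 held 52.3% of its UMIs at 3 ng/ml, and the 25 richest held 46.9% at 12 ng/ml. The interval does not cover this spread between cells. The share of cells with a Krt19 UMI was 11.1% at 3 ng/ml and 10.9% at 12 ng/ml.

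Epcam, Cldn6, Cldn7 and Tjp1 did not share the keratin order between FGFRi and 0.75 ng/ml. Epcam was at 267 CPM with FGFRi and 332, 328, 232 and 218 CPM along the FGF2 doses. Its highest levels were thus at 0 and 0.75 ng/ml, which differed by less than their counting error (ratio 0.988, 0.970 to 1.01), and FGFRi was below both. Cldn6, an early embryonic claudin, was at 104, 115, 125, 83.7 and 72.8 CPM in the same order. Cldn7 was at 55.6, 62.1, 57.4, 34.7 and 32.5 CPM, and the scaffold gene Tjp1 at 134, 151, 133, 104 and 95.2 CPM. For all 4 genes the largest step between neighboring FGF2 doses was the one from 0.75 to 3 ng/ml, between 1.28-fold for Tjp1 and 1.65-fold for Cldn7. Levels from 0 to 12 ng/ml differed by 1.52-fold for Epcam, 1.58-fold for Cldn6, 1.59-fold for Tjp1 and 1.91-fold for Cldn7, all lower at 12 ng/ml.

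The other claudins among the 10 genes were scarce, and they differed from each other. Cldn4 was at 13.5 CPM with FGFRi and 6.11, 3.79, 2.03 and 2.28 CPM along the FGF2 doses, an order close to that of Krt7. Its neighbor Cldn3 was at 3.16, 5.58, 5.92, 3.14 and 2.87 CPM, with its highest levels at 0 and 0.75 ng/ml as for Epcam. With FGFRi against 0 ng/ml, Cldn4 was 2.21-fold (1.94 to 2.53) higher and Cldn3 was lower, at 0.566 (0.463 to 0.689) of its level at 0 ng/ml.

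**Figure D1:**
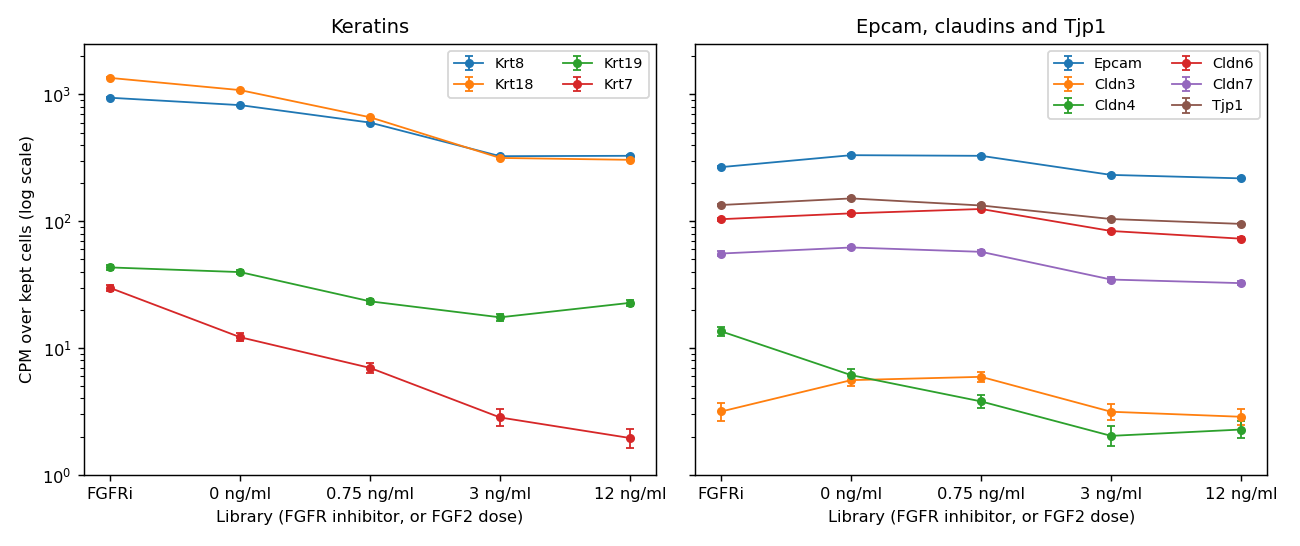
Level of each gene in each library in CPM over retained cells (log axis), keratins on the left and Epcam, claudins and Tjp1 on the right; points are 1 library each and bars are exact Poisson 95% intervals. Krt18 runs from 1350 CPM with FGFRi to 305 CPM at 12 ng/ml and Krt7 from 29.8 to 1.95 CPM, whereas Epcam peaks at 332 CPM at 0 ng/ml.

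A fixed rule of size was set beside these values. It asked for 50 CPM in 1 or both libraries and for a 2-fold difference. Krt8, Krt18, Epcam, Cldn6, Cldn7 and Tjp1 reach 50 CPM, except that Cldn7 does not between 3 and 12 ng/ml. From 0 to 12 ng/ml, Krt8 and Krt18 passed the rule as lower, and no member passed as higher. Of all 3141 genes at 50 CPM in this comparison, 4.14% passed in either direction and 2.93% passed as lower. The median log2 ratio of the 6 members was -0.80, beside 0.03 for all genes at that minimum. From 0.75 to 3 ng/ml only Krt18 passed, as lower, where 0.299% of all genes passed as lower and 0.432% in either direction. No member passed from FGFRi to 0 ng/ml (6.46% of all genes), from 0 to 0.75 ng/ml (1.51%) or from 3 to 12 ng/ml (0% of 2978 genes). Krt7 and Cldn4 exceeded a ratio of 2 from FGFRi to 0 ng/ml and from 0 to 12 ng/ml, and Krt7 also from 0.75 to 3 ng/ml, but they did not reach 50 CPM in any library.

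Per cell, the keratin level was spread over a wide range and not around 1 value per condition. The sum of Krt8 and Krt18 was at least 10 UMIs per 10000 in 40.5% of cells with FGFRi and in 45.0%, 35.0%, 18.0% and 14.6% along the FGF2 doses. The share of cells below 1 UMI per 10000 ran the other way, from 19.6% with FGFRi through 25.6%, 38.1% and 56.8% to 64.4% at 12 ng/ml. At 12 ng/ml the 10% of cells with the highest level still began at 18.7 UMIs per 10000, beside a median of 0.409. With FGFRi this limit was 57.4 and the median 6.32. The sum of Epcam, Cldn6 and Cldn7 had its limit for the highest 10% of cells between 9.89 and 12.4 in all 5 libraries, and its median between 4.33 at 0 ng/ml and 0.854 at 12 ng/ml.

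**Figure D2:**
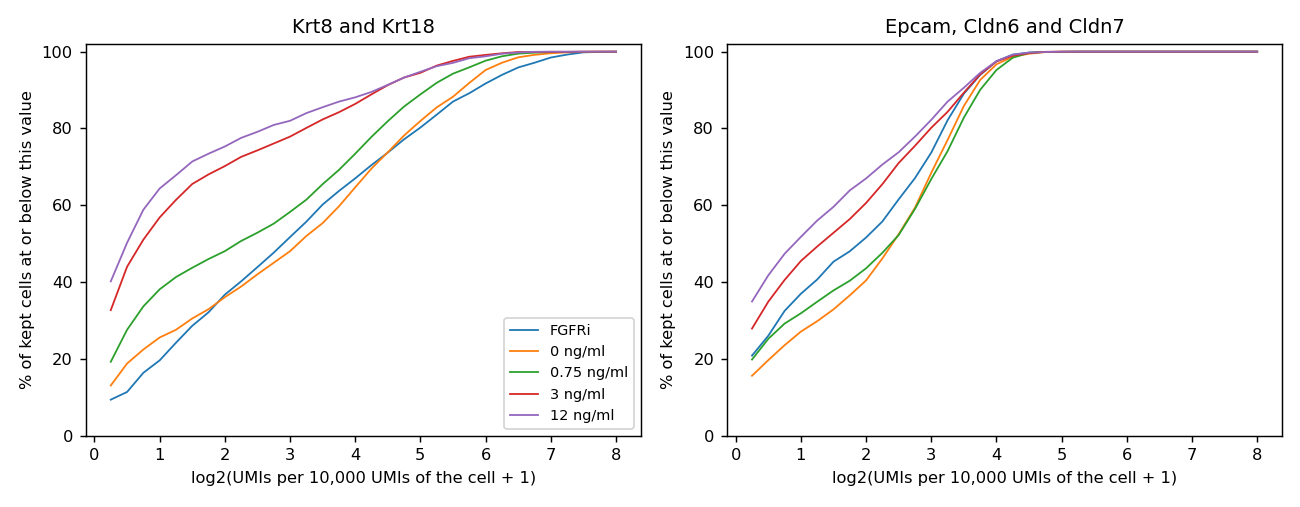
Cumulative share of retained cells (%) by the summed UMIs of Krt8 and Krt18 (left) or of Epcam, Cldn6 and Cldn7 (right) per 10000 UMIs of the cell, as log2 of the value plus 1, 1 line per library. Curves that start higher have more cells with few UMIs; for the keratins the share of cells under 1 UMI per 10000 is 19.6% with FGFRi and 64.4% at 12 ng/ml.

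Shares of cells with a UMI were compared after each cell was thinned to 5000 UMIs, which removes differences in depth. Krt18 was then detected in 71.1% of cells with FGFRi and in 66.7%, 54.5%, 34.4% and 28.7% along the FGF2 doses. Without thinning the shares ran from 87.7% with FGFRi to 47.8% at 12 ng/ml. Epcam was detected in 54.2%, 61.1%, 58.8%, 45.7% and 41.7% of thinned cells. On average 2.88 of the 10 genes were detected per thinned cell with FGFRi and 3.05, 2.71, 1.94 and 1.72 along the FGF2 doses. Cells without a UMI of any of the 10 genes made up 13.4% at 0 ng/ml and 32.6% at 12 ng/ml.

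Cells were then divided by detection of the cadherins that mark the ends of EMT. Cdh1-only cells had at least 1 UMI of Cdh1 and none of Cdh2, and Cdh2-only cells the reverse. Cdh1-only cells made up 36.3% of cells with FGFRi and 43.3%, 38.7%, 20.8% and 14.1% along the FGF2 doses. Cdh2-only cells made up 36.7%, 28.7%, 38.8%, 53.9% and 58.7%. A cell without a UMI may still express the gene, and cells with both cadherins were deeper in every library (medians of 31058 to 39233 UMIs) than Cdh1-only cells (24053 to 27733) and Cdh2-only cells (23608 to 29153). Possible doublets were not removed, and their part in the cells with both cadherins was not tested.

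The members separated by cadherin in all 5 libraries. Krt8 in Cdh1-only cells was at 1708 CPM with FGFRi and 1207, 1137, 998 and 1056 CPM along the FGF2 doses, and in Cdh2-only cells it was at 125, 91.3, 48.7, 33.0 and 31.0 CPM. Krt18 was at 2321, 1586, 1235, 956 and 1031 CPM in Cdh1-only cells and at 317, 145, 56.9, 35.2 and 31.0 CPM in Cdh2-only cells. Both keratins were thus higher in the Cdh1-only cells of every library than in the Cdh2-only cells of any, and the ratio between the states grew from 7.33 with FGFRi to 33.2 at 12 ng/ml for Krt18. For Krt8 it lay between 13.2 at 0 ng/ml and 34.1 at 12 ng/ml.

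Epcam had a more even ratio between the states. It was at 491, 525, 575, 571 and 628 CPM in Cdh1-only cells, from FGFRi to 12 ng/ml, and at 62.5, 67.7, 66.2, 66.5 and 56.8 CPM in Cdh2-only cells, a ratio of 7.76 to 11.1. Cldn6 was at 199, 178, 223, 232 and 243 CPM in Cdh1-only cells and at 8.30, 22.0, 21.6, 19.3 and 12.9 CPM in Cdh2-only cells. Cldn7 was at 124, 117, 119, 112 and 127 CPM and at 0.743, 3.92, 3.62, 4.05 and 2.28 CPM. Cldn7 thus had the widest separation, 27.7-fold at 3 ng/ml to 167-fold (95.6 to 324) with FGFRi, where the Cdh2-only cells held 12 UMIs of it. Tjp1 had the narrowest, 1.99-fold with FGFRi to 2.25-fold at 12 ng/ml, and was detected after thinning in 29.0% to 36.3% of Cdh2-only cells.

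Under the rule of size, Krt8, Krt18, Epcam, Cldn6 and Cldn7 passed as higher in Cdh1-only cells in all 5 libraries, 5 of the 6 members that could be tested in each. Of all 2616 genes that reached 50 CPM in Cdh1-only or Cdh2-only cells of every library, 1.61% did so. Cldn6 and Cldn7 reached 50 CPM in Cdh1-only cells alone in every library. Krt8 reached it there alone at 0.75, 3 and 12 ng/ml, and Krt18 at 3 and 12 ng/ml. A member that reached it there alone could pass only as higher in Cdh1-only cells. Epcam reached it in both states of every library. Tjp1 passed in 4 libraries and had a ratio of 1.99 with FGFRi. Krt19, Krt7, Cldn3 and Cldn4 were below 50 CPM in most libraries, but each had a ratio of at least 8.30 in every library. After thinning to 5000 UMIs, 4.17 to 4.47 of the 10 genes were detected per Cdh1-only cell and 0.727 to 1.32 per Cdh2-only cell. The state with neither cadherin, which was the shallowest in depth, lay between these, with Epcam at 272 to 394 CPM.

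**Figure D3:**
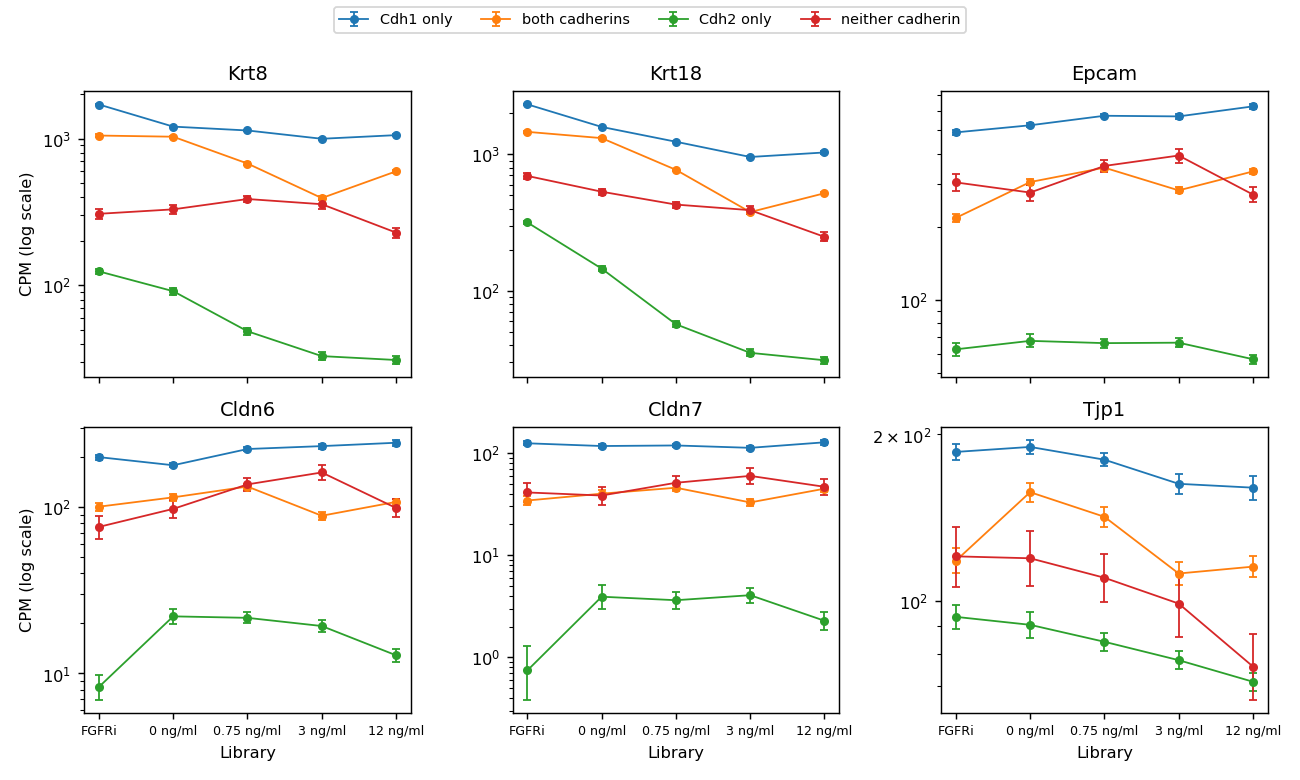
Level in CPM (log axis) of Krt8, Krt18, Epcam, Cldn6, Cldn7 and Tjp1 by library, in cells with UMIs of Cdh1 only, of both cadherins, of Cdh2 only or of neither; bars are exact Poisson 95% intervals. Cdh1-only cells are highest and Cdh2-only cells lowest in every panel, and the Cdh2-only line of Krt18 runs from 317 to 31.0 CPM.

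Within Cdh1-only cells, all 4 keratins were lower at 12 ng/ml than with FGFRi, whereas the junction genes differed from each other. Krt18 was 2.25-fold lower at 12 ng/ml than with FGFRi, Krt8 was 1.62-fold lower, and Krt7 was 7.63-fold lower (58.7 against 7.69 CPM). Cldn4 was 4.10-fold lower, at 28.7 against 6.99 CPM, and Tjp1 1.16-fold lower, at 186 against 160 CPM. By contrast, Epcam was 1.28-fold (1.24 to 1.32) higher and Cldn6 1.22-fold (1.16 to 1.28) higher at 12 ng/ml, and Cldn7 and Cldn3 differed by less than their counting error, with ratios of 1.02 (0.953 to 1.10) and 1.28 (0.965 to 1.69). In this comparison Krt18, Krt19 and Krt7 passed the rule of size as lower, where 8.71% of all genes did. Krt19 and Krt7 reached 50 CPM in it only with FGFRi. Wnt6, Tfap2a and the other markers of surface ectoderm and amnion summed to 530 CPM in the Cdh1-only cells with FGFRi and 233 CPM at 12 ng/ml. Wnt6 alone was at 280 and 131 CPM in these cells. Markers of mesenchyme and extraembryonic mesoderm summed to 2920 CPM with FGFRi and 393 CPM at 12 ng/ml in the same state. Whether cells with either set of markers carried the keratin difference was not tested.

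Krt8 and Krt18 had a wider range in Cdh2-only cells than in the other cadherin states. Krt18 was 10.2-fold and Krt8 4.02-fold lower at 12 ng/ml than with FGFRi, where 12.7% of all genes passed the rule as lower. From 0 to 12 ng/ml, Krt18 was 4.69-fold and Krt8 2.94-fold lower, where 0.853% of all genes passed as lower. Markers of mesenchyme and extraembryonic mesoderm summed to 4406 CPM in Cdh2-only cells with FGFRi and 414, 115, 93.2 and 80.3 CPM along the doses. In Cdh1-only cells this list was lower with FGFRi (2920 CPM) but higher at each dose (934, 469, 276 and 393 CPM). It was thus not particular to Cdh2-only cells. The mesenchymal list, 9 genes with Vim among them, summed to 3104 CPM with FGFRi and 622, 393, 558 and 752 CPM. Both lists were thus highest with FGFRi, as Krt8 and Krt18 were, and their part in the keratin levels was not tested. After thinning, Krt18 was detected in 44.8% of Cdh2-only cells with FGFRi and in 18.9%, 15.2%, 10.6% and 8.78% along the FGF2 doses. Epcam was detected in 23.0%, 18.3%, 21.3%, 21.1% and 17.9% of them. Free RNA in the droplets adds UMIs to cells that do not express a gene, and no cell type that lacks these genes was annotated, so a low share in Cdh2-only cells cannot be told apart from background. With FGFRi, Cdh2-only cells held 0.393 (0.373 to 0.414) Krt8 UMIs per Krt18 UMI and Cdh1-only cells 0.736 (0.725 to 0.747). The part of free RNA in these counts was not tested.

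The balance of the filament partners shifted along the series. All retained cells together held 0.698 Krt8 UMIs per Krt18 UMI with FGFRi and 0.761, 0.908, 1.03 and 1.08 along the FGF2 doses. No counting intervals of neighboring libraries overlapped, but those at 3 ng/ml (1.01 to 1.05) and 12 ng/ml (1.06 to 1.10) nearly met. These intervals treat UMIs as independent, whereas 22 cells held 21.5% of Krt8 UMIs at 3 ng/ml and 25 cells held 22.2% at 12 ng/ml. Cdh1-only cells gave 0.736, 0.761, 0.920, 1.04 and 1.02 in the same order, so that the shift was also present within 1 cadherin state, with overlapping intervals at 3 and 12 ng/ml. Cdh2-only cells gave 0.393, 0.628, 0.856, 0.938 and 1.00. The value itself depends on how well the 3′ end of each transcript is captured and mapped, so that differences between libraries can be read but not the excess of 1 partner over the other. Across single cells Krt8 and Krt18 were the most strongly correlated pair among the 10 genes (Pearson's r of 0.781 to 0.903 over the cells of a library, and 0.719 to 0.796 after thinning). Epcam with Cldn6 gave 0.671 to 0.772. These correlations are over cells of 1 library and share its depth, and they are given as a description.

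**Figure D4:**
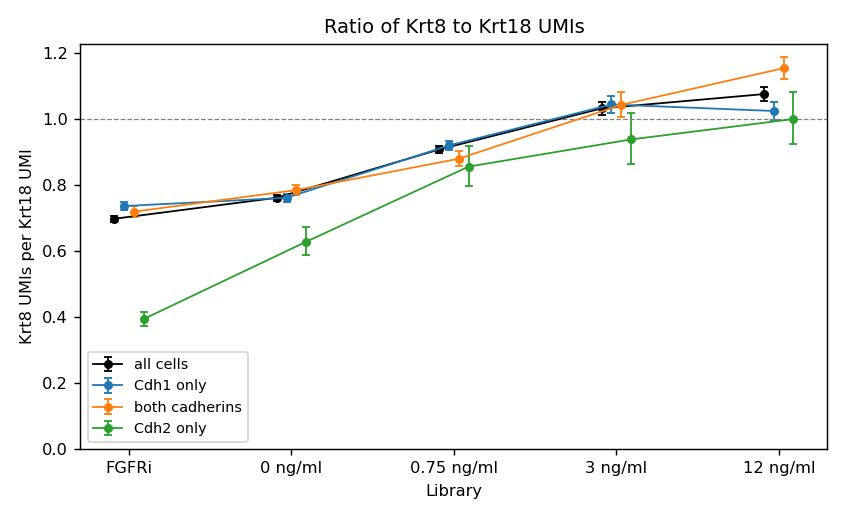
Krt8 UMIs per Krt18 UMI by library in all retained cells and in 3 cadherin states; bars are exact binomial 95% intervals turned into ratios and the dashed line is at 1. The ratio over all cells is 0.698 with FGFRi and 1.08 at 12 ng/ml, and the Cdh2-only cells with FGFRi stand lowest at 0.393.

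Because both the shares of the states and the levels within them differed, levels at 12 ng/ml were recombined with the state shares of 0 ng/ml. These were shares of UMIs and not of cells. At 0 ng/ml, cells with both cadherins made up 21.8% of cells and 27.8% of UMIs. The observed ratio of Krt18 at 12 over 0 ng/ml was 0.282. With the state shares held it was 0.544, and with the levels per state held and the shares of 12 ng/ml it was 0.611. For Krt8 these values were 0.398, 0.753 and 0.604, and for Krt7 they were 0.160, 0.334 and 0.562. For Krt19 they were 0.572, 0.809 and 0.682, and other ways of choosing cells or calling states gave 0.712 to 0.979 with the shares held. Keratin levels at 12 ng/ml were thus below those at 0 ng/ml under either recombination. Holding the state shares does not hold the mix of cells within a state. Cdh1-only cells also differed by T, as described under other observations, and that mix was not held. Epcam had an observed ratio of 0.656, a ratio of 1.15 with the shares held and 0.607 with the levels held. Cldn6 (0.631, 1.19 and 0.611) and Cldn7 (0.523, 1.09 and 0.490) had the same order. With the states called from cells thinned to 5000 UMIs, the ratios with the shares held were 0.898 for Epcam, 0.903 for Cldn6 and 0.788 for Cldn7, so that for these 3 genes the direction depended on how the states were called. Tjp1 had 0.629, 0.796 and 0.810.

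**Figure D5:**
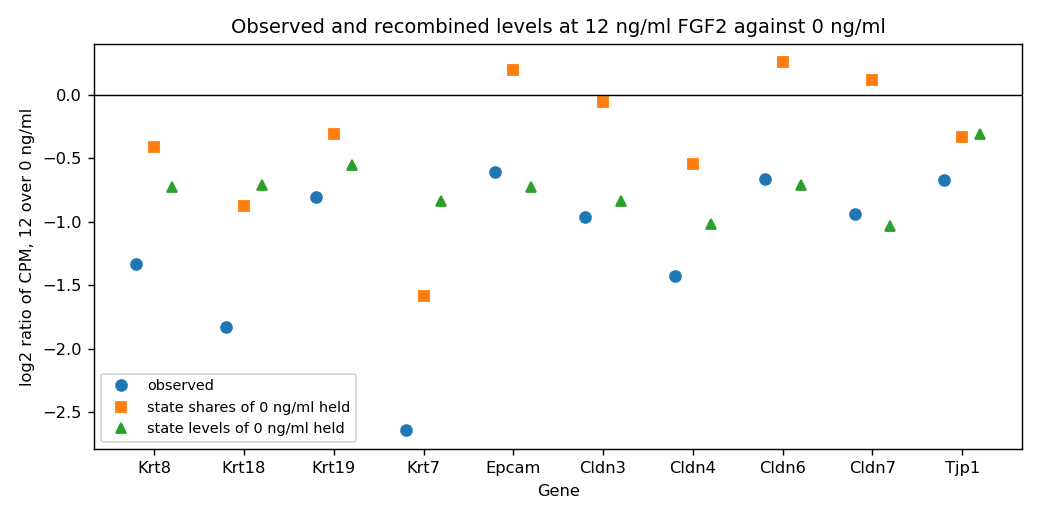
Log2 ratio of CPM at 12 over 0 ng/ml FGF2 for each gene as observed (circles), with the shares of the 4 cadherin states held at those of 0 ng/ml (squares), and with the levels per state held at those of 0 ng/ml (triangles). Shares are of UMIs. Squares of Epcam, Cldn6 and Cldn7 lie above 0 and those of the keratins below it; with states called after thinning, the squares of these 3 genes would lie below 0.

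Over the 20 groups of 5 libraries and 4 cadherin states, the members formed a graded order of likeness in log2(CPM + 1). Cldn6 and Cldn7 had r = 0.991, Epcam and Cldn7 r = 0.985, and Epcam and Cldn3 r = 0.954. Krt8 and Krt18 had r = 0.974 and Krt7 and Cldn4 r = 0.926. Krt7 and Cldn3 were least alike, at r = 0.562. Among 3998 other genes with at least 50 CPM in any group, those most like Krt8 were Nectin2 (r = 0.978), an adherens junction adhesion gene, Slc2a1 (r = 0.965), a glucose transporter gene, and Cgn (r = 0.963), the cingulin gene of the tight junction. Those most like Krt18 were Wnt6 (r = 0.973), Nectin2 (r = 0.969) and Llgl2 (r = 0.967). The polarity gene Crb3 (r = 0.977), the desmosomal cadherin Dsg2 (r = 0.965) and the protease inhibitor Spint2 (r = 0.963) were most like Epcam, and Slc2a3 (r = 0.968), the splicing regulator Esrp1 (r = 0.966) and Spint1 (r = 0.954) most like Cldn6. The 20 groups share libraries, and these values are a description.

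Other genes of the epithelial program were counted from fixed lists. Of the 11 desmosome genes, 4 reached 50 CPM in Cdh1-only or Cdh2-only cells of every library. Dsp, Dsg2 and Jup passed as higher in Cdh1-only cells in all 5 libraries. Of 9 epithelial membrane and protease genes, 4 reached it, and Spint1, Spint2 and St14 passed. Of 16 tight junction and polarity genes, 5 reached it and Cgn passed. Of 9 adherens junction genes, 6 reached it and Nectin2 passed. Klf5, a Krüppel-like transcription factor gene, was the single one of the 10 epithelial transcription and splicing factors that reached this minimum, and it passed. Cgn, Dsg2, Klf5, Spint1 and St14 reached the minimum in Cdh1-only cells alone in every library. Nectin2, Jup and Spint2 did so at 12 ng/ml. A gene that reached it there alone could pass only as higher in Cdh1-only cells. No gene of any of these lists passed as lower in all 5 libraries, where 0.382% of all genes did. Along the FGF2 doses from 0 to 12 ng/ml, the desmosome and p53 effector gene Perp was 2.53-fold lower, the cingulin-like gene Cgnl1 2.91-fold lower and Spint1 2.02-fold lower. No gene of the adherens junction list passed in this comparison. The list does not hold Cdh1 and Cdh2, which both passed, Cdh1 as 2.36-fold lower and Cdh2 as 2.14-fold higher at 12 ng/ml.

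None of the 15 other keratins and 14 other claudins on the lists reached 50 CPM in any library. The highest among them over the libraries and their Cdh1-only and Cdh2-only cells was Krt17, a keratin of stratified epithelium, at 26.8 CPM in the Cdh1-only cells with FGFRi. Krt17 was at 12.9 CPM over all cells with FGFRi and 0.170 CPM at 12 ng/ml, and Krt14 at 10.7 and 0.283 CPM; both were named after their values were seen. The last 500 bases of the longest coding transcript of Krt18 matched 1 other annotated gene, a pseudogene absent from the files, at 92.1% identity. Those of Krt7 matched stretches in 41 other genes, of which 34 are in the files, the most of any member. The effect of such matches on the counts of Krt7 and Krt18 was not tested. Krt8, Krt7 and Cldn3 each overlap 1 gene of the files on the opposite strand, and the assay keeps the strand.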

How the data were processed

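Single-cell RNA sequencing (10x 3′ v3.1) gave 1 library for each of 5 conditions. The authors deposited raw UMI counts per gene and barcode, made by Cell Ranger (5.0.1 in the matrix headers) on mm10, with genes from GENCODE vM23/Ensembl 98. The study's methods name an earlier version. The filters of the study's methods were then applied (at least 2500 genes, at most 10% mitochondrial UMIs). Doublets were not called.

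CPM was the UMIs of a gene over all UMIs of the retained cells, with exact Poisson intervals, exact conditional intervals for ratios and exact (Clopper-Pearson) binomial intervals for shares, without a pseudocount. For likeness over the 20 groups, 1 CPM was added before log2. With 1 library per condition no test was run. The rule of size asked for 50 CPM in either group and a ratio of 2. Cadherin states were called from raw UMIs. The named genes were all 10 members, both cadherins, at most 4 genes per list and comparison that passed the rule, and the 3 genes most like Krt8, Krt18, Epcam and Cldn6. The members, lists and alternatives were chosen with earlier results of these data known. Of 32285 gene identifiers, 32235 were matched in GENCODE vM21, and near-identical transcripts were searched with blastn 2.17.0 (at least 90% identity over 100 bases). Promoter windows came from a RefSeq table on GRCm38.p6. For 1 alternative scaling, TMM was run in edgeR 4.0.16 (R 4.3.3). Other steps used Python 3.11.15 with NumPy 2.4.6, SciPy 1.17.1, pandas 2.3.3 and Matplotlib 3.10.9. The size rule, intervals, thinning and recombination were tested on simulated data.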

Additional observations from a re-analysis of the deposited data

Results flagged for a closer look

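Epcam, Cldn6 and Cldn7 stood out because their levels at 12 against 0 ng/ml FGF2 differed in opposite directions in the cadherin states, with counting intervals on opposite sides of 1. The difference between the states was not tested, since each condition is 1 library. Epcam had a ratio of 1.20 (1.16 to 1.23) in Cdh1-only cells and 0.840 (0.780 to 0.905) in Cdh2-only cells. Cldn6 had 1.37 (1.30 to 1.44) in Cdh1-only cells and 0.584 (0.508 to 0.672) in Cdh2-only cells. Under 5 other ways of choosing cells or calling states, the ratios in Cdh1-only cells lay between 1.10 and 1.20 for Epcam and between 1.13 and 1.38 for Cldn6, and those in Cdh2-only cells between 0.808 and 0.883 and between 0.552 and 0.597. Cldn7 had 1.09 (1.02 to 1.16) in Cdh1-only cells and 0.582 (0.415 to 0.821) in Cdh2-only cells. With the states called after thinning, its ratios were 0.926 and 1.03, on the other side of 1 in both states.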

How the results depend on the processing

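Counts of members under the rule of size were set against the alternatives for cells, scaling and thresholds. With a minimum of 10 CPM, 2 members (Krt7 and Cldn4) passed from FGFRi to 0 ng/ml, where none did at 50 CPM. With a ratio of 1.5, 1 member (Krt18) passed from 0 to 0.75 ng/ml, 3 (Krt8, Krt18 and Cldn7) from 0.75 to 3 ng/ml and 6 from 0 to 12 ng/ml, all as lower. A looser threshold admits more genes by construction. The other 43 of 47 alternative counts were within 1.5 times the reported ones, and the count of members higher in Cdh1-only cells in every library was 5 or 6 throughout. None of the called log2 ratios changed sign. TMM factors moved the log2 ratios of members by at most 0.0150, and leaving out the 5% of cells with the most UMIs by at most 0.27. Among ratios that were not called, Krt8 from 3 to 12 ng/ml went from 0.01 to -0.09 without those cells. With every cell given the same weight it went to -0.115. Under that weighting Cldn4 from 3 to 12 ng/ml went from 0.166 to -0.0634. All 100 thinned shares lay outside the interval of the share from all UMIs, as thinning removes UMIs. Calling states from thinned cells, an alternative chosen after seeing the data, turned the recombined ratios of Epcam, Cldn6 and Cldn7 to below 1, and Krt19 in Cdh1-only cells from 0.699 to 1.06 (12 over 0 ng/ml), and the cause was not tested. No paired analysis was possible because each condition has 1 library, and for the same reason no library could be left out. Members under 50 CPM, such as Cldn3 with 151 UMIs in the FGFRi library, are limited by depth.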

Other observations

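Cdh1-only cells differed among themselves by T, the Brachyury gene of the primitive streak, a split chosen after the data were seen. Krt8 in Cdh1-only cells with a T UMI was at 695, 693, 562 and 586 CPM along the FGF2 doses from 0 to 12 ng/ml, and in those without one at 1241, 1238, 1261 and 1528 CPM. Krt18 was at 864, 737, 547 and 576 CPM with T and at 1634, 1350, 1203 and 1488 CPM without it. Levels with T were thus below all levels without it for both keratins. Epcam was nearer to even, at 487, 477, 458 and 560 CPM with T and at 528, 597, 640 and 697 CPM without it. Cells with T numbered 42, 181, 163 and 171 along the doses, and median UMIs per cell were 27039 to 30834 with T and 25964 to 28193 without it. With FGFRi only 3 Cdh1-only cells had a T UMI, so that no comparison could be made there. Among Cdh1-only cells without T, the Krt8 level at 12 ng/ml was above that at 0 ng/ml, whereas over all Cdh1-only cells it was below.

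Krt19 was concentrated in few cells. Cells with at least 10 Krt19 UMIs numbered 61 with FGFRi and 71, 56, 29 and 47 along the FGF2 doses. They held 58.2% to 68.2% of all Krt19 UMIs of their library. The cut was on raw UMIs, which deeper cells reach more readily, and the depth of these cells was not compared. Krt8 in these cells was at 2949, 2499, 2137, 1750 and 1752 CPM, above its level in Cdh1-only cells of the same library. Endoderm markers summed to 1.39 to 4.07 CPM in them and 1.11 to 4.03 CPM in the remaining cells. Surface ectoderm and amnion markers summed to 335, 228, 300, 178 and 192 CPM in the Krt19-rich cells. In the remaining cells they summed to 333, 242, 208, 103 and 69.0 CPM. Epiblast markers summed to 45.2, 88.0, 133, 152 and 196 CPM, against 65.3, 88.4, 116, 119 and 122 CPM. Mesoderm markers summed to 89.6, 135, 122, 214 and 433 CPM, against 64.8, 157, 232, 411 and 448 CPM. The identity of the Krt19-rich cells was not tested. Krt8, Krt18 and Krt7 were higher in Cdh1-only cells than in cells with both cadherins in all 5 libraries, whereas Krt19 was higher in cells with both cadherins than in Cdh1-only cells at 0 ng/ml (68.3 against 45.6 CPM), 0.75 ng/ml (45.1 against 33.4 CPM) and 12 ng/ml (64.5 against 31.9 CPM), and its ratio was below 1 with FGFRi (0.842) and at 3 ng/ml (0.884, interval 0.781 to 1.00).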
